A study of Drosophila melanogaster with 15 samples.

Results

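The genes described are the nuclear genes for mitochondrial ribosomal proteins, whose symbols start with mRpL (large subunit) or mRpS (small subunit) followed by a number. A gene was taken where a probe set of the array carries its symbol and no other, and where it had several such probe sets, the one with the highest mean over all 15 arrays stood for it. This gave 69 genes, 44 of the large and 25 of the small subunit, of 11982 genes with a probe set of their own. RefSeq lists 73 genes with such symbols: mRpS10 and mRpL53 share their probe set with a neighbouring gene symbol, and mRpL34 and mRpL37 were not analysed here. Each of the 69 lay at or above the 40th percentile of probe set levels, so none was lost to a filter on low values.

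The flies were adult males of Drosophila melanogaster, 3 days old, and each array was hybridised with RNA from the whole bodies of 25 flies. The groups were flies of 4 transgenic lines expressing Dsup after 1000 Gy of ionizing radiation (4 arrays), untreated flies of the same 4 Dsup lines (4 arrays), control flies after 1000 Gy (3 arrays) and untreated control flies (4 arrays). Dsup, short for damage suppressor, is a tardigrade protein that binds nucleosomes. All groups were reared at the same temperature and on the same medium with antibiotic. The labels call control arrays biological replicates, while each Dsup array of a treatment is another line. Neither the promoter that drives Dsup, nor the genetic background of the controls, nor the time from irradiation to RNA isolation is stated in the labels. A difference between Dsup lines and controls therefore cannot be told apart from one of genetic background, and p-values reflect only the spread between these arrays.

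Mitochondria carry their own ribosomes, which translate the few messages encoded in mitochondrial DNA, all of them in the fly for subunits of the respiratory chain and the ATP synthase. Their RNA is mitochondrial, but every protein of the particle is encoded in the nucleus, made in the cytosol and imported. Some of these proteins descend from those of the bacterial ribosome and others were added in the mitochondrial lineage. Mitochondria-rich flight muscle makes up much of the adult fly.

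Levels are log2 probe set values after quantile normalization of the 15 arrays together, unless another scaling is named. They were set against each other only within a probe set. Differences are log2 changes with their standard error (SE) from a limma model of the 4 group means, and a gene was called higher or lower at an adjusted p below 0.05 over all 18769 probe sets tested. The mean deposited log2 value over all probe sets averaged 4.49 in irradiated Dsup lines, 4.04 in untreated Dsup lines, 4.87 in irradiated control flies and 4.63 in untreated control flies, with an SD of at most 0.0113 inside a group. As deposited, the median of all probe sets shifted with radiation, by 0.47 in Dsup lines and 0.23 in control flies, by -0.61 between untreated Dsup lines and controls and by -0.39 between irradiated Dsup lines and controls. Of the 69 genes, 21 to 31 had identical deposited values in each pair of irradiated control arrays and none in any other pair. Over all probe sets 6814 to 7744 values were identical in these pairs, against 20 to 209 in pairs inside the other groups. This lowers the SD and range of irradiated control flies and the pooled spread the tests use. Whether these arrays are independent replicates cannot be told, which limits every comparison with their range. Untreated control array 4 stood apart in the 18S ribosomal RNA control probe set, at 7.48 against 11.3 to 12.3 in the other arrays, and without it 34 of the 69 genes were called higher and 1 lower with radiation in control flies, against 16.4% and 16.5% of all probe sets. An offset that one probe set carries throughout a group cannot be told apart from a group difference.

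In control flies, messages for the mitochondrial ribosome were higher after 1000 Gy. Of the 69 genes, 32 rose, 1 fell and the other 36 were not called, against 16.9% of all probe sets called higher and 17.1% called lower. The median change of the 69 was 0.28 (interquartile range 0.11 to 0.45), against -0.01 over all probe sets, and 61 of the 69 estimates were above 0. The rises ranged from 0.24 to 0.96 on the log2 scale, or 1.18-fold to 1.95-fold. With a measure of RNA integrity as a covariate, described with the other measures that moved with radiation, 1 gene was called, against 4.97% of all probe sets. The median change was then 0.23. That measure did not overlap between irradiated and untreated arrays. Calls lost with it therefore cannot tell RNA integrity from radiation. In whole-body RNA, a change in the number of cells of a type and a change in RNA per cell cannot be told apart.

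The rise was seen in both subunits. In the large subunit 21 of 44 genes rose and none fell, with a median change of 0.28. At an unadjusted p below 0.05 the counts were 28 and 0, with no share of all probe sets set beside them. In the small subunit 11 of 25 rose and mRpS9 fell, with a median of 0.23. In mammals the counterparts of mRpS18A and mRpS30 sit in the large subunit. With these genes moved there, the counts were 22 of 46 higher for the large and 10 of 23 higher and 1 lower for the small subunit. A split into bacterial and mitochondria-specific type was added after the values were seen. The bacterial type took the numbers up to L36 and S21, plus mRpL47, mRpS24 and mRpS28, which were added by name. It had 20 of 43 higher with 1 lower (median 0.28). The mitochondria-specific type had 12 of 26 higher with 0 lower (median 0.23).

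**Figure D1:**
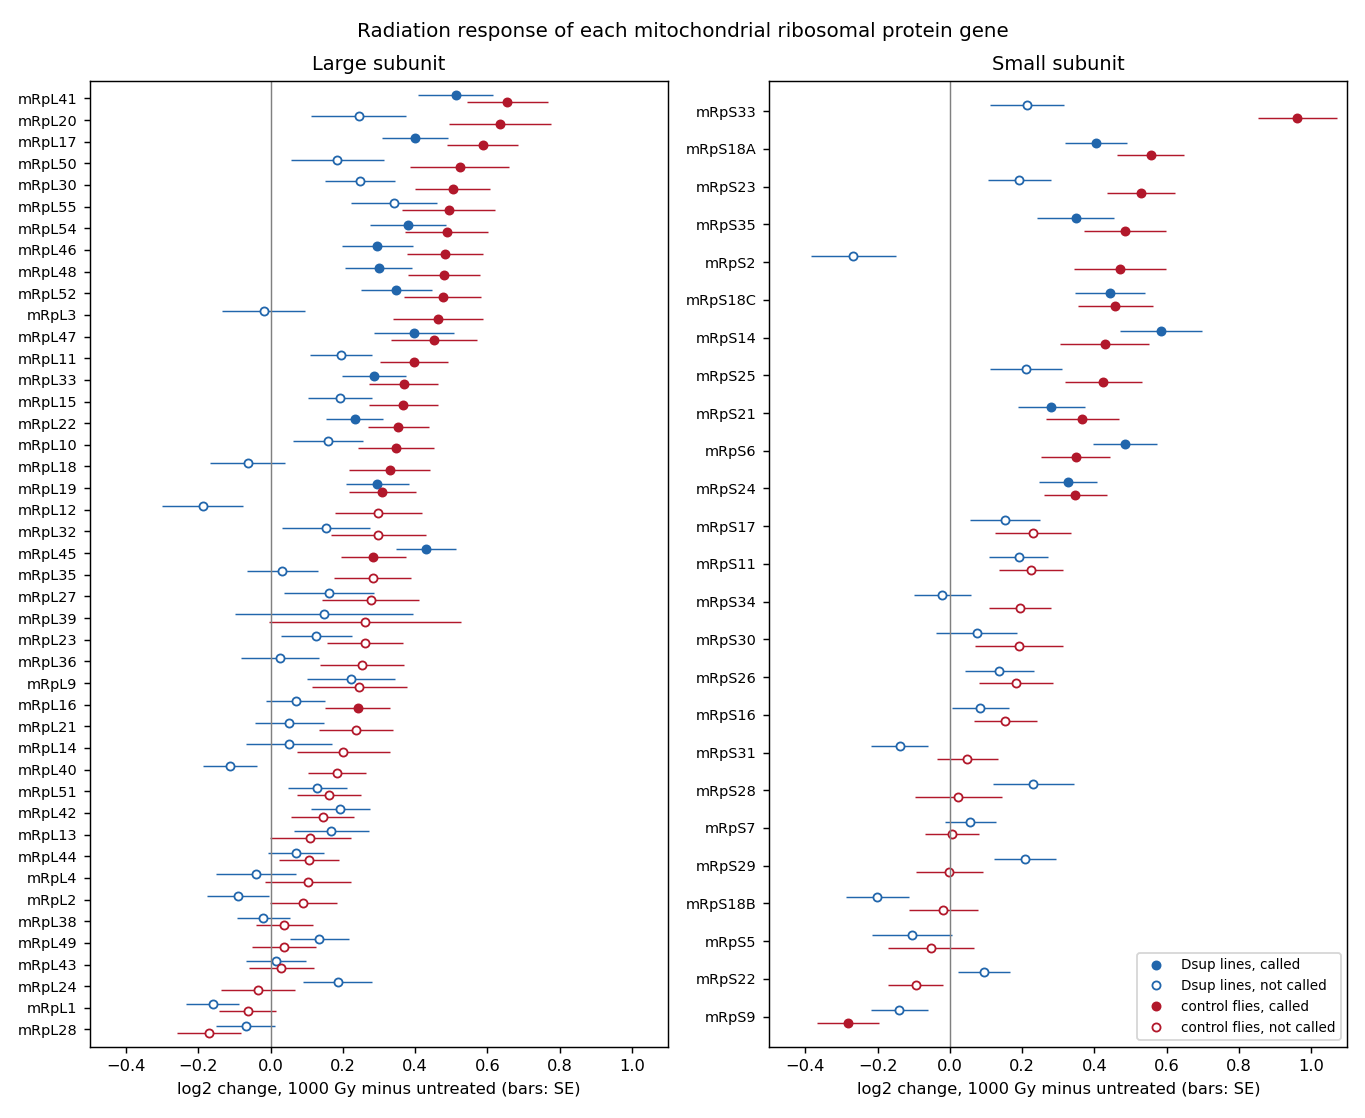
Log2 change with 1000 Gy (x axis, irradiated minus untreated, bars are SE) of each of the 69 mitochondrial ribosomal protein genes, large subunit at left and small subunit at right, in Dsup lines (blue) and in control flies (red). Filled points were called at an adjusted p below 0.05, 18 in Dsup lines and 33 in control flies, and most points of both colours lie right of 0.

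The arrays show the same shift without a model. The median of the 69 genes lay 0.996 to 1.14 log2 units above the median of all genes of the same array in irradiated Dsup lines, against 0.756 to 1.01 in untreated Dsup lines, where the highest untreated array, Dsup line 1, reached the irradiated range. It lay 1.01 to 1.11 above in irradiated control flies, against 0.648 to 0.917 in untreated control flies, so these groups did not overlap. For the 44 large subunit genes the group means were 1.01 ± 0.09 in irradiated and 0.84 ± 0.14 in untreated Dsup lines (SD, n = 4 each), and 1.02 ± 0.02 in irradiated and 0.80 ± 0.12 in untreated control flies (SD, n = 3 and 4). For the 25 small subunit genes they were 1.08 ± 0.04 in irradiated and 0.91 ± 0.15 in untreated Dsup lines, and 1.08 ± 0.06 in irradiated and 0.81 ± 0.11 in untreated control flies. On the values as deposited, the medians lay 1.02 to 1.15 above that of all genes in irradiated and 0.752 to 0.976 above it in untreated Dsup lines, and 1.05 to 1.13 above it in irradiated and 0.623 to 0.898 above it in untreated control flies.

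**Figure D2:**
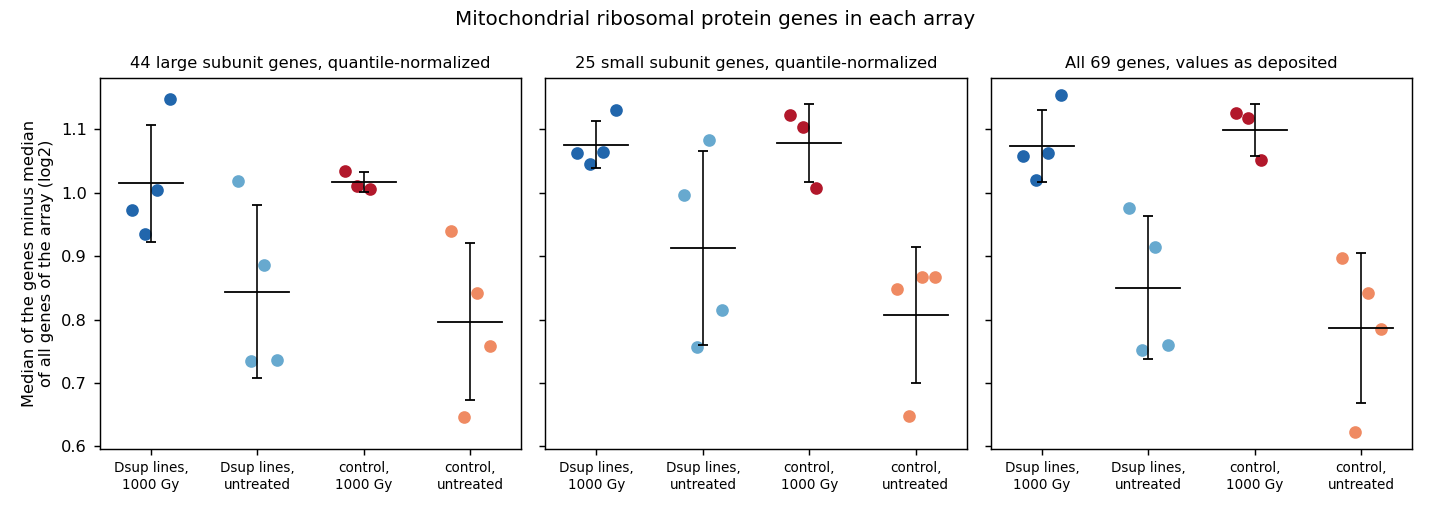
Each point is an array, and the y axis gives the median log2 level of mitochondrial ribosomal protein genes minus the median of all genes of that array, for the large subunit, the small subunit and all 69 genes as deposited. Lines and bars are the mean and SD of a group of 3 or 4 arrays. In control flies each irradiated array lies above each untreated one in all 3 panels.

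Among the genes of the large subunit, mRpL41, a component with no bacterial counterpart, had the highest rise in control flies. Its levels were 6.66, 6.53 and 6.53 in irradiated control flies, against 6.03, 5.70, 5.94 and 6.01 in untreated control flies. The groups did not overlap, and the change was 0.66 ± 0.11 (SE, adjusted p = 0.000482). mRpL20, counterpart of a bacterial protein needed early in assembly of the large subunit, had levels of 6.24, 6.19 and 6.20 in irradiated and 5.93, 5.25, 5.67 and 5.47 in untreated control flies. The untreated arrays spread widely, yet all were below the irradiated ones, with a change of 0.63 ± 0.14 (adjusted p = 0.00317).

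mRpL17, whose bacterial counterpart lies near the exit of the peptide tunnel, was at 7.00, 6.95 and 6.95 in irradiated and at 6.47, 6.21, 6.38 and 6.47 in untreated control flies, a change of 0.59 ± 0.10 (adjusted p = 0.0004). mRpL45, which in mammals lies at the tunnel exit and faces the inner membrane, was at 6.08, 6.05 and 6.07 in irradiated and at 5.64, 5.84, 5.86 and 5.78 in untreated control flies. Its rise was smaller, 0.28 ± 0.09 (adjusted p = 0.0244), and again without overlap. mRpL4, counterpart of a bacterial protein that lines the tunnel, had a change of 0.10 ± 0.12 (adjusted p = 0.54) and overlapping groups.

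The stalk of the large subunit, where translation factors with GTPase activity dock, is built on mRpL10, mRpL11 and mRpL12. mRpL10 rose by 0.35 ± 0.11 (adjusted p = 0.0185) and mRpL11, which had the lowest mean level of the 69 probe sets, by 0.40 ± 0.09 (adjusted p = 0.0043). mRpL12 was at 6.89, 6.85 and 7.01 in irradiated and at 6.87, 6.36, 6.74 and 6.51 in untreated control flies. The groups overlapped, and its change of 0.30 ± 0.12 was not called (adjusted p = 0.0699). The mitochondria-specific mRpL50, whose probe set had the second lowest mean level, rose by 0.52 ± 0.14 (adjusted p = 0.00883), while mRpL28, with the second highest mean level, had -0.17 ± 0.09 (adjusted p = 0.149).

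In the small subunit, mRpS33 had the highest change of all 69 genes. It is a small protein found only in mitochondrial ribosomes. Its levels were 6.73, 6.70 and 6.71 in irradiated control flies, against 5.86, 5.60, 5.75 and 5.78 in untreated control flies. The gap between the groups exceeded the whole range inside either, and the change was 0.96 ± 0.11 (adjusted p = 1.87e-05), or 1.95-fold. mRpS23, also mitochondria-specific, was at 5.76, 5.75 and 5.76 in irradiated and at 5.17, 5.09, 5.22 and 5.43 in untreated control flies, a rise of 0.53 ± 0.09 (adjusted p = 0.000639).

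Of the 3 genes related to bacterial S18, mRpS18A and mRpS18C were called. mRpS18A was at 7.00, 6.89 and 6.97 in irradiated and at 6.50, 6.21, 6.41 and 6.47 in untreated control flies, with a rise of 0.56 ± 0.09 (adjusted p = 0.000388). mRpS18C rose by 0.46 ± 0.10 (adjusted p = 0.00357), and mRpS18B, a comparison made after the values were seen, had -0.02 ± 0.09 (adjusted p = 0.903). The differences between these probe sets were not tested.

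mRpS14, counterpart of a bacterial protein of the head of the small subunit, was at 6.80, 6.66 and 6.75 in irradiated and at 6.43, 6.17, 6.26 and 6.38 in untreated control flies. It rose by 0.43 ± 0.12 (adjusted p = 0.0143). mRpS30 had 0.19 ± 0.12 (adjusted p = 0.249) and mRpS5, the probe set with the highest mean level, -0.05 ± 0.12 (adjusted p = 0.766).

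mRpS9, whose bacterial counterpart contacts the tRNA held on the small subunit, was the 1 gene that fell. It was at 7.28, 7.25 and 7.31 in irradiated and at 7.46, 7.53, 7.56 and 7.69 in untreated control flies, a change of -0.28 ± 0.08 (adjusted p = 0.0181). All irradiated arrays were below all untreated ones after quantile normalization. On the deposited values its change was 0.09, below the shift of 0.23 in all probe sets. The call was lost with centring on the array median (-0.10, adjusted p = 0.425) or on cytosolic ribosomal protein genes (-0.18, adjusted p = 0.239), and without irradiated control array 1 or 2 (adjusted p = 0.0566 and 0.0680). It was also lost with the RNA integrity covariate (adjusted p = 0.172).

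Without regard to the test, 44 of the 69 genes were higher in each irradiated control array than in each untreated one and 3 were lower in each, against 23.5% and 24.3% of all probe sets. Untreated control array 2 held the lowest level of its group for 55 of the 69 genes, while it was the lowest for 28.6% of all probe sets. Without that array, 28 genes rose and 1 fell in control flies, against 14.8% and 15.4% of all probe sets. The median change was then 0.21.

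In the Dsup lines, 18 of the 69 genes rose after 1000 Gy and 0 fell, against 10.7% and 10.6% of all probe sets. At an unadjusted limma p below 0.05, 27 were higher and 3 lower, with no share of all probe sets set beside them. The median change was 0.16, against 0.01 over all probe sets. Of the large subunit 11 of 44 rose (median 0.16), and of the small subunit 7 of 25 rose (median 0.19). The rises ranged from 0.23 to 0.59. The count rested on a few arrays: it was 8 without untreated Dsup line 2, 9 without untreated line 4 and 11 without irradiated line 4, against 8.23%, 8.82% and 8.91% of all probe sets. It was 6 with the RNA integrity covariate, against 6.19%.

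mRpS14 led in the Dsup lines. Its levels were 6.95, 6.89, 7.12 and 7.30 in irradiated lines 1 to 4, against 6.72, 6.30, 6.62 and 6.28 in the untreated lines 1 to 4. The groups did not overlap, and the change was 0.59 ± 0.11 (adjusted p = 0.00247). mRpL41 was at 6.46, 6.57, 6.45 and 6.57 in irradiated and at 5.99, 5.90, 6.30 and 5.79 in untreated lines, a rise of 0.51 ± 0.10 (adjusted p = 0.0033).

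mRpS6, counterpart of a bacterial protein that pairs with S18, was at 5.75, 5.81, 5.88 and 5.72 in irradiated and at 5.51, 5.22, 5.42 and 5.07 in untreated lines. It rose by 0.48 ± 0.09 (adjusted p = 0.00176) in the Dsup lines and by 0.35 ± 0.10 (adjusted p = 0.012) in control flies. mRpS18C rose by 0.44 ± 0.10 in the Dsup lines (adjusted p = 0.00507) and mRpS18A by 0.40 ± 0.09 (adjusted p = 0.00438). mRpL45 was at 6.05, 6.03, 6.06 and 6.17 in irradiated and at 5.74, 5.83, 5.55 and 5.47 in untreated lines, a rise of 0.43 ± 0.08 (adjusted p = 0.00252).

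mRpL17 rose by 0.40 ± 0.09 (adjusted p = 0.00666). The stalk genes were not called: mRpL10 had 0.16 ± 0.10, mRpL11 0.20 ± 0.09 and mRpL12 -0.19 ± 0.11 (adjusted p = 0.258, 0.12 and 0.25). The other genes named by rule in control flies and not called in the Dsup lines were mRpL20 with 0.24 ± 0.13, mRpS23 with 0.19 ± 0.09, mRpL50 with 0.19 ± 0.13 and mRpS33 with 0.21 ± 0.10. Of mRpL4, mRpL28, mRpS5, mRpS9 and mRpS30, none was called, with changes from -0.14 to 0.07.

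All 18 genes called higher in the Dsup lines were also called higher in control flies, and 14 were called in control flies alone. A missing call in Dsup lines does not show a missing response. Of these 14, the interaction called mRpS33 and mRpS2 only. Both rises together were called for 5.18% of all probe sets. The 2 comparisons share no array. Across the 69 genes their changes had a Pearson correlation of 0.58 and a Spearman correlation of 0.65, against 0.68 and 0.55 across all probe sets. Genes are not independent replicates, and the values are a description.

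Whether the response differed between genotypes was tested by the interaction, the change in Dsup lines minus that in control flies. It was below 0 for 56 of the 69 genes with a median of -0.12, against 0.02 over all probe sets. The test called 2 genes lower and 0 higher, against 4.77% and 4.31% of all probe sets. With probe sets below the 40th percentile of level removed, it called 1 lower and 0 higher, against 0.746% and 0.462%. At an unadjusted p below 0.05, 7 genes were lower and 0 higher, with no share of all probe sets set beside them. On the deposited values the median was 0.04 against 0.23 in all probe sets, and the control response was the larger one for 19 of 69 genes in place of 56, so the direction for the group holds only relative to all probe sets.

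The 2 genes called were mRpS33 and mRpS2, both of the small subunit. mRpS33 was at 6.61, 6.47, 6.60 and 6.54 in irradiated and at 6.59, 6.17, 6.50 and 6.10 in untreated Dsup lines 1 to 4. Untreated lines 1 and 3 lay within the range of the irradiated lines, while lines 2 and 4 lay below it. The interaction was -0.75 ± 0.15 (adjusted p = 0.00656), next to a rise of 0.96 in control flies.

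mRpS2, counterpart of a bacterial protein that joins the small subunit late in assembly, had estimates of opposite sign in the 2 genotypes after quantile normalization. It was at 5.26, 5.38, 5.38 and 5.50 in irradiated Dsup lines, against 5.62, 5.81, 5.60 and 5.56 in untreated Dsup lines, a change of -0.27 ± 0.12 that was not called (adjusted p = 0.121). It was at 5.63, 5.64 and 5.63 in irradiated control flies, against 5.12, 4.76, 5.35 and 5.43 in untreated control flies, a rise of 0.47 ± 0.13 (adjusted p = 0.0106). The groups of both genotypes did not overlap, and the interaction was -0.74 ± 0.17 (adjusted p = 0.0171). With dim probe sets removed before the test it was not called (adjusted p = 0.0585). As deposited its changes were both above 0, at 0.19 in Dsup lines and 0.71 in control flies, so the sign in Dsup lines holds only relative to the other probe sets.

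**Figure D3:**
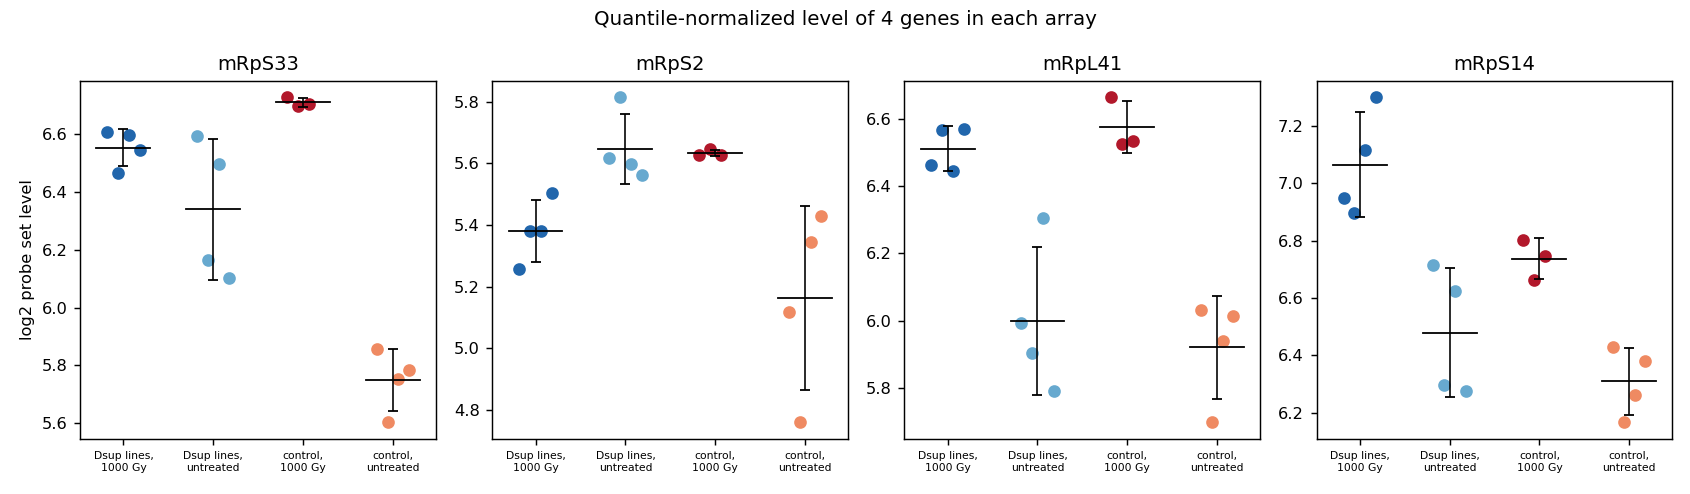
Log2 level (y axis, quantile-normalized) of mRpS33, mRpS2, mRpL41 and mRpS14 in each array, with the mean and SD of each group of 3 or 4 arrays. mRpL41 and mRpS14 are higher in irradiated arrays of both genotypes, and mRpS33 is lowest in untreated control flies. mRpS2 is lower in irradiated than in untreated Dsup lines, a change that was not called and was above 0 as deposited.

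Between untreated flies of the 2 genotypes few of these genes were called. Dsup lines had 2 genes higher and 0 lower than control flies, against 5.44% and 5.27% of all probe sets, with a median of 0.08. With probe sets below the 40th percentile of level removed, the counts were again 2 and 0, against 1.58% and 1.3%. At an unadjusted limma p below 0.05, 11 genes were higher and 3 lower, with no share of all probe sets set beside them. The 2 genes called were mRpS33, higher by 0.59 ± 0.10 (adjusted p = 0.00286), and mRpS2, higher by 0.48 ± 0.12 (adjusted p = 0.0187). Their groups did not overlap. The same untreated arrays enter the radiation comparisons and the interaction, so these calls are not independent of each other. As deposited both were lower in Dsup lines, by -0.09 and -0.20, beside a shift of -0.61 in all probe sets. Neither subunit had another gene called; medians were 0.08 for the large and 0.04 for the small subunit. 5 genes were higher and 0 lower in each untreated Dsup line than in each untreated control array, against 6.78% and 6.78% of all probe sets.

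Of the genes named by rule, mRpL12 came nearest to a call, at 7.14, 6.81, 7.08 and 6.82 in untreated Dsup lines, against 6.87, 6.36, 6.74 and 6.51 in untreated control flies. The groups overlapped, and the difference was 0.35 ± 0.11 (adjusted p = 0.0611). mRpL45 had -0.14 ± 0.08 and mRpL17 0.11 ± 0.09, and the differences for mRpL4, mRpL10, mRpS5, mRpS14, mRpS18A and mRpS30 lay between -0.03 and 0.17 with none called.

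After 1000 Gy, 1 gene was lower and 0 higher in Dsup lines than in control flies, against 6.05% and 5.91% of all probe sets. With probe sets below the 40th percentile of level removed, 0 were lower and 0 higher, against 2.32% and 1.92%. At an unadjusted p below 0.05, 5 genes were lower and 2 higher, with no share of all probe sets set beside them. The median was -0.06 over the 69 genes, -0.06 for the large and 0.01 for the small subunit. The 1 gene called over all probe sets was mRpL1, whose bacterial counterpart forms the mobile arm beside the site where spent tRNA leaves. It was at 5.50, 5.46, 5.38 and 5.47 in irradiated Dsup lines, against 5.74, 5.73 and 5.74 in irradiated control flies, with no overlap and a difference of -0.28 ± 0.08 (adjusted p = 0.0317).

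The call for mRpL1 was lost without any 1 of the 3 irradiated control arrays (adjusted p = 0.0992 to 0.107), and without irradiated Dsup line 2, 3 or 4. mRpL1 was also lower by estimate in untreated Dsup lines, at 5.69, 5.66, 5.62 and 5.49 against 5.86, 5.62, 5.82 and 5.90 in untreated control flies, a difference of -0.19 ± 0.07 that was not called (adjusted p = 0.122). mRpS33 and mRpS2, higher in untreated Dsup lines, had -0.16 ± 0.11 and -0.25 ± 0.13 after radiation, neither called. mRpS14 had 0.33 ± 0.12 (adjusted p = 0.099) and mRpS23 -0.30 ± 0.09 (adjusted p = 0.0533). Without a test, 8 of the 69 genes were higher and 11 lower in each irradiated Dsup array than in each irradiated control array, against 18.4% and 17.8% of all probe sets.

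The spread inside a group differed between groups. The median SD of the 69 genes was 0.0898 in irradiated Dsup lines, 0.137 in untreated Dsup lines, 0.0319 in irradiated control flies and 0.142 in untreated control flies. Irradiated control arrays share many identical deposited values, so their low SD cannot be read as a smaller variation between flies. The mitochondria-specific mRpL39, singled out after its values were seen, had the highest SD in 3 of the 4 groups. It was at 6.18 in irradiated Dsup line 2 and at 6.08 in untreated Dsup line 2, against 5.03 to 5.73 in the other irradiated lines and 5.12 to 5.34 in the other untreated lines. In control flies it was at 5.55, 5.54 and 5.57 after radiation, against 5.53, 4.72, 5.24 and 5.66 in untreated flies, and no comparison called it.

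Other probe sets of the same genes bear on single values. The second probe set of mRpL47 rose by 0.45 ± 0.10 in control flies and the one counted by 0.45 ± 0.12, both called. For mRpS11 the probe set counted had 0.23 ± 0.09 in control flies and was not called (adjusted p = 0.0626), while the second one rose by 0.44 ± 0.12 (adjusted p = 0.0097). That second probe set was also lower in irradiated Dsup lines than in irradiated control flies, by -0.39 ± 0.12 (adjusted p = 0.0433), where the one counted had -0.12 ± 0.09 and was not called. The probe set shared by mRpS10 and CG34316 had 0.21 ± 0.09 in Dsup lines and 0.14 ± 0.09 in control flies with radiation, neither called, and the one shared by mRpL53 and CG33155 had 0.11 ± 0.09 in Dsup lines and 0.20 ± 0.10 in control flies. The probe set of CG34316 alone was called lower with radiation in both genotypes, with changes of -2.72 in Dsup lines and -1.91 in control flies.

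The scaling sets how many of these genes are called and, between untreated genotypes and for the interaction, the sign of the median. As deposited, 68 of the 69 rose with radiation in Dsup lines and 67 in control flies, against 76% and 41.9% of all probe sets. None of the 69 fell in either, against 1.23% and 7.65%. Between Dsup lines and control flies, 66 were lower as deposited both in untreated and in irradiated flies, against 88.9% and 60.3% of all probe sets, and 0 were higher, against 0.266% and 1.55%. The interaction called 2 higher and 2 lower as deposited, against 20.6% and 2.32%. Relative to the median of all probe sets, the median of the 69 genes stood 0.18 higher with radiation in Dsup lines as deposited and 0.15 higher after quantile normalization. In control flies these values were 0.35 and 0.29. Between genotypes they were 0.01 and 0.09 in untreated flies and -0.17 and -0.06 after radiation. Centring each array on its median gave 21 genes higher in Dsup lines and 48 in control flies, against 12.3% and 20.7% of all probe sets, and 0 lower in either. Centring on the cytosolic ribosomal protein genes gave 6 higher and 2 lower in Dsup lines, against 3.82% and 14.6%. In control flies it gave 31 higher and 0 lower, against 13.5% and 18.5%.

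**Figure D4:**
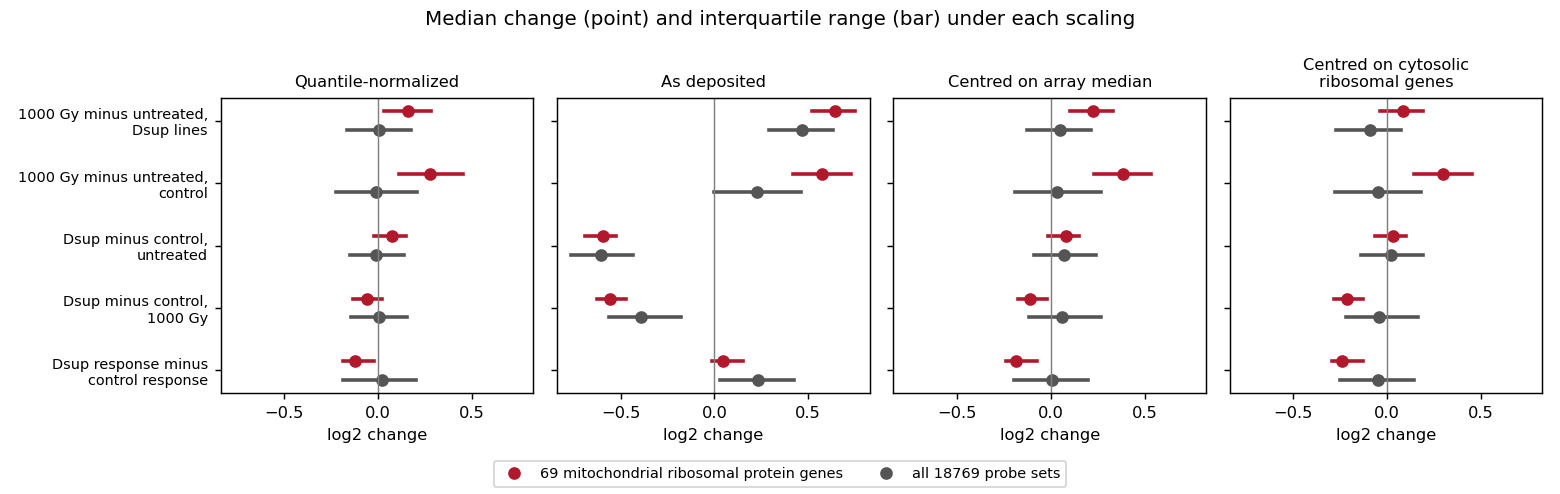
Median log2 change (point) and interquartile range (bar) of the 69 mitochondrial ribosomal protein genes (red) and of all 18769 probe sets (grey) in the 5 comparisons under 4 scalings (x axis, log2 change). The red medians lie right of the grey ones in both radiation comparisons under each scaling, while the red medians for untreated genotypes and for the difference in response change sign between values as deposited and the other scalings.

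Genes that work with the mitochondrial ribosome were counted by the same calls after quantile normalization, and their counts stand beside 10.7% of all probe sets higher and 10.6% lower in Dsup lines, and 16.9% higher and 17.1% lower in control flies. As deposited, where the shares were 76% and 1.23% in Dsup lines and 41.9% and 7.65% in control flies, the counts were other ones and are given after them. Of proteins of the particle under other symbols, tko (the counterpart of bacterial S12, at the decoding site) and bonsai (of S15) were not called in Dsup lines, while tko rose by 0.40 ± 0.13 and bonsai by 0.51 ± 0.11 in control flies (limma, adjusted p = 0.0248 and 0.00201). As deposited both rose in both genotypes. Of 9 mitochondrial translation factors, 1 rose and 0 fell in Dsup lines and 2 rose and 1 fell in control flies. As deposited 9 rose in Dsup lines and 5 in control flies, with 0 lower in either. The initiation factor mIF3 rose by 0.39 ± 0.11 in Dsup lines and by 0.90 ± 0.12 in control flies. In control flies the initiation factor mIF2 rose by 0.72 ± 0.12 and the elongation factor mEFTu2, outside the naming rule, fell by 0.26 ± 0.09. As deposited the change of mEFTu2 was above 0, at 0.12, and not called. Of 14 mitochondrial aminoacyl-tRNA synthetases, which charge tRNAs, none was called in Dsup lines, and 3 rose and 2 fell in control flies (13 and 7 higher as deposited, 0 lower in either), with AsnRS-m at 0.48 ± 0.13 and ProRS-m at 0.38 ± 0.11. AsnRS-m was also called for the interaction, -0.66 ± 0.18 (adjusted p = 0.0342, and 0.103 as deposited).

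Of 13 genes for mitochondrial transcription, RNA handling and DNA upkeep, 1 rose and 1 fell in Dsup lines, and 5 rose and 2 fell in control flies. As deposited 11 rose and 0 fell in Dsup lines, and 8 rose and 1 fell in control flies. SLIRP2, related to an RNA-binding partner of mitochondrial messages in mammals, rose by 0.35 ± 0.10 in Dsup lines, and the single-strand binding protein gene mtSSB rose by 0.72 ± 0.17 in control flies. mtDNA-helicase, which unwinds mitochondrial DNA, changed by -0.55 ± 0.12 in Dsup lines and by -0.99 ± 0.13 in control flies, both called. As deposited these changes were -0.13, not called, and -0.87. Of 13 import genes, Tim17b2 rose by 0.39 ± 0.11 in Dsup lines and by 0.42 ± 0.12 in control flies, and Tim8 rose by 0.43 ± 0.08 in control flies, with no other called. As deposited all 13 rose in both genotypes.

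Of 9 mitochondrial chaperones and proteases, 0 rose and 1 fell in Dsup lines, and 3 rose and 1 fell in control flies (8 and 7 higher as deposited, 0 lower in either). ClpX, which unfolds substrates for a protease, changed by -0.40 ± 0.14 in Dsup lines and by -0.75 ± 0.15 in control flies, both called. As deposited they were 0.15 and -0.24, neither called. The protease gene Lon rose by 0.91 ± 0.17 in control flies and had an interaction of -0.78 ± 0.23 (adjusted p = 0.0436, and 0.0734 as deposited).

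The products of mitochondrial translation join nuclear-encoded subunits of oxidative phosphorylation. Of 72 such nuclear genes, chosen by symbol and including relatives named L, 9 rose and 1 fell in Dsup lines and 5 rose and 2 fell in control flies. As deposited 71 rose in Dsup lines and 59 in control flies, with 0 lower in either. The examples named by rule were ND-B12 of complex I with 0.70 ± 0.09 and UQCR-11 of complex III with 0.55 ± 0.11 in Dsup lines, and UQCR-11 with 1.03 ± 0.12 and ND-B8 of complex I with 0.50 ± 0.11 in control flies. The median change of the 72 was 0.11 in Dsup lines and -0.01 in control flies, beside 0.16 and 0.28 for the mitochondrial ribosomal protein genes. As deposited it was 0.68 and 0.43, beside 0.64 and 0.57, and the difference between the lists was not tested.

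The ribosomes of the cytosol gave other counts. Of 41 cytosolic ribosomal protein genes, 2 rose and 2 fell in Dsup lines (median 0.05), and 0 rose and 6 fell in control flies (median -0.04). As deposited 40 rose in Dsup lines (median 0.60) and 33 in control flies (median 0.36), and none fell in either. RpL24-like, whose yeast counterpart acts in ribosome assembly, fell by 1.20 ± 0.36 in control flies and as deposited had -0.75, not called. Of 5 regulators of nuclear genes for mitochondria or of stress, the same 3 transcription factors fell in both genotypes after quantile normalization. As deposited foxo alone fell in Dsup lines, and foxo and ewg in control flies, while 2 other genes rose in Dsup lines and 1 in control flies. For foxo the changes were -0.99 ± 0.21 in Dsup lines and -1.24 ± 0.22 in control flies. For ewg, relative of the mammalian factor NRF1, they were -0.59 ± 0.14 in Dsup lines and -0.87 ± 0.15 in control flies, and for cnc -0.38 ± 0.08 in Dsup lines and -0.37 ± 0.08 in control flies. As deposited cnc had 0.15 and -0.01, neither called.

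Other measures moved with radiation as well, and their part in these results was not tested apart from the values given. The 3' minus 5' level of the actin and GAPDH control probe sets is a sign of RNA integrity. It is higher, and integrity lower, where less 5' signal is left. It was 1.24 to 1.45 in irradiated and 1.01 to 1.19 in untreated Dsup lines. In control flies it was 1.33 to 1.53 in irradiated and 0.790 to 1.23 in untreated arrays. The ranges of irradiated and untreated arrays did not overlap in either genotype, so a fit with this covariate cannot separate it from radiation. With this measure as a covariate, the median changes of the 69 genes were 0.14 in Dsup lines and 0.23 in control flies. In Dsup lines 6 genes were then called higher, against 6.19% of all probe sets, and in control flies 1, mRpS33 with 0.86 (adjusted p = 0.0122), against 4.97%.

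Flight muscle markers had 0 of 6 genes called in either genotype after quantile normalization, and 5 higher in Dsup lines and 0 in control flies as deposited, with mean levels of 10.4 to 11.2 in irradiated and 10.3 to 11.2 in untreated Dsup lines, and of 10.7 to 10.8 in irradiated and 10.4 to 11.1 in untreated control flies. Of testis markers 2 of 9 rose in Dsup lines, and 1 rose and 1 fell in control flies, with mean levels of 6.23 to 6.60 over all arrays. As deposited 8 rose and 0 fell in Dsup lines, and 6 rose and 1 fell in control flies. Of accessory gland markers 2 of 7 rose in Dsup lines, with mean levels of 10.2 to 10.3 in irradiated and 9.59 to 10.2 in untreated lines. In control flies 5 of the 7 rose, with a mean level of 10.1 in each irradiated and of 9.07 to 9.83 in untreated arrays. As deposited 7 rose in Dsup lines and 6 in control flies.

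Of fat body markers 0 of 5 were called in Dsup lines, with mean levels of 8.04 to 8.90 in irradiated and 7.79 to 8.99 in untreated lines. In control flies 3 of the 5 rose, with 8.28 to 8.57 in irradiated and 6.24 to 7.64 in untreated arrays. As deposited 3 rose in Dsup lines and 4 in control flies. Of neuronal markers 3 of 5 fell in both genotypes, with 5.39 to 5.65 in irradiated and 5.67 to 6.01 in untreated Dsup lines, and 5.49 to 5.56 in irradiated and 5.52 to 6.29 in untreated control flies. As deposited 1 rose and 0 fell in Dsup lines, and 0 rose and 2 fell in control flies. Of midgut markers 1 of 5 fell in both, with mean levels of 10.3 to 10.8 over all arrays. As deposited 3 rose and 0 fell in Dsup lines, and 2 rose and 1 fell in control flies. Of female markers 2 of 6 rose and 1 fell in Dsup lines and 0 were called in control flies, with mean levels of 2.78 to 3.15 over all arrays. As deposited 5 rose in Dsup lines and 3 in control flies, with 0 lower in either.

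The arrays fell into 2 sets by the level of a hybridization spike-in, bioD, which the labels do not name as a batch. With the set as a block, 18 genes rose and 0 fell in Dsup lines, against 11.5% and 11.4% of all probe sets, and 31 rose and 1 fell in control flies, against 17.2% and 17.4%. Within the sets the median changes of the 69 genes were 0.04 and 0.20 in Dsup lines, where the first set holds 1 irradiated and 1 untreated array, and 0.32 and 0.24 in control flies, where the second set holds 1 irradiated array. mRpS33 rose in control flies within the first set, by 0.98 with 2 arrays in each group (limma, adjusted p = 0.0209). The irradiated control arrays of the first set are the pair with the most identical deposited values. Within the second set the change of mRpS33 was 0.94, set by the 1 irradiated array and so without a replicate check. The interaction of mRpS33 was -0.97 and -0.66 within the sets and that of mRpS2 -1.06 and -0.48, with none called and each resting on at least 1 group of 1 array.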

How the data were processed

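Each of the 15 samples gave 1 Affymetrix 3' expression array, labelled with biotin per the labels' protocols. The authors deposited log2 values for 18952 probe sets, read as log2 from their range. How probes were summarised and normalized is not stated in the labels, no intensities were used, and the number of arrays limits the precision. The genome build is not named, so no coordinates are given.

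Values were quantile-normalized over all arrays. After 183 control probe sets were left out, 18769 entered the test by limma (version 3.58.1, R version 4.3.3; model of 4 group means, plain eBayes, 11 residual degrees of freedom, two-sided, Benjamini-Hochberg over all). The code was tested on simulated data. The members, gene lists and tests were chosen with earlier results of these data known.

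Genes were named by rule: in each comparison the 6 largest called rises and falls, then mRpL12, mRpL10, mRpL4, mRpL17, mRpS5, mRpS14, mRpS18A, mRpS30, mRpS33 and mRpL45, and the 2 highest and 2 lowest by mean level. From each other list the 2 largest called changes were named. Further genes were named after their values were seen.

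Dsup arrays pair by line, which the labels name in both treatments. Deviations of the same line correlated at -0.0115, 0.11, -0.0965 and -0.176. Same-numbered control arrays correlated at -0.135, 0.251 and -0.162, and nothing in the labels pairs them. With the line as a block, 18 genes rose in Dsup lines, against 10.8% of all probe sets, and 31 rose and 1 fell in control flies, against 16.9% and 17.3%.

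Alternatives were the deposited values, centring on the array median or on cytosolic ribosomal protein genes, a filter on dim probe sets, averaged probe sets, trended robust eBayes, the RNA integrity covariate, spike-in sets, blocks and leaving out each array, with the remaining arrays normalized anew.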

Additional observations from a re-analysis of the deposited data

Results flagged for a closer look

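mRpS30 stood at 5.94 in untreated control array 2, against 6.26 to 6.31 in the other untreated control arrays, a gap that was large for its group of 4. This was 1 of 63 groups examined for the 21 genes named by rule, and chance alone sets apart about 1 in 20. Untreated control array 2 was the lowest of its group for 55 of the 69 genes, against 28.6% of all probe sets. The radiation response of mRpS33 differed between genotypes by -0.75 (Dsup lines minus control flies) and that of mRpS2 by -0.74, both called by the limma interaction test.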

How the results depend on the processing

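As deposited, 68 genes rose in Dsup lines, 67 rose and 0 fell in control flies, 0 were higher and 66 lower in untreated and 66 lower in irradiated Dsup lines than in controls, and the interaction called 2 higher; mRpS9 with radiation in control flies (0.0935) and, between untreated genotypes, mRpS33 (-0.0900) and mRpS2 (-0.204) turned sign. Median centring gave 0 lower in control flies, against 15% of all probe sets. It gave 4 lower in irradiated Dsup lines than in controls, against 5.35%. Centring on cytosolic ribosomal protein genes gave 6 higher and 2 lower in Dsup lines, against 3.82% and 14.6% of all probe sets. With this centring 0 were lower in control flies, against 18.5%, and 7 lower in irradiated Dsup lines than in controls, against 7.92%. Removing dim probe sets gave 0 lower between irradiated genotypes, against 2.32% of all probe sets kept, and 1 for the interaction, against 0.746%. The RNA integrity covariate gave 6 higher in Dsup lines, against 6.19% of all probe sets, and 1 higher and 0 lower in control flies, against 4.97% and 4.75%. It gave 0 lower between irradiated genotypes, against 4.32%, and 1 lower for the interaction, against 2.51%. The spike-in sets hold fewer arrays. Within the second set 7 genes rose in Dsup lines, against 4.51% of all probe sets. Within the first set 10 rose and 0 fell in control flies, against 9.04% and 8.53%. Between untreated genotypes 0 were called within the second set, against 0.0906% higher and 0.0746% lower. Every other comparison within a set rested on a group of 1 array, so its count is not given. The replicate block by Dsup line changed no count by over 1.5 times. A block that also paired control arrays by number gave 12 higher in Dsup lines, against 9.34% of all probe sets. It gave 31 higher and 0 lower in control flies, against 14.5% and 15%, and 0 lower between irradiated genotypes, against 4.08%. The causes of these moves were not tested beyond the smaller number of arrays or probe sets in some.

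Leaving out 1 array gave 8 to 20 genes higher and 0 to 1 lower in Dsup lines. The shares of all probe sets were 8.23% to 11.5% and 8% to 11.5%. In control flies 25 to 35 were higher and 0 to 1 lower, against 12.2% to 17.4% and 12.3% to 17.8%. Between untreated genotypes 2 to 5 were higher and 0 to 1 lower, against 3.6% to 5.65% and 3.78% to 5.43%. Between irradiated genotypes 0 to 3 were lower, against 2.82% to 6.91%. For the interaction 2 to 4 were lower, against 2.43% to 5.36%. The 5 genes higher in untreated Dsup lines and the 4 lower for the interaction came without untreated control array 1. The 24 changes of genes named by rule that were called kept their sign under every alternative, with the 3 exceptions as deposited. They lost their call 14 times with the integrity covariate, 20 and 17 times within the spike-in sets, 16 times over all left-out arrays, 3 times each with centring on cytosolic ribosomal protein genes and with the block by line and control replicate, 2 times with dim probe sets removed and 1 time with median centring.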
